A study of Mus musculus with 96 samples.

Results

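10 autosomal genes of the mouse heart were followed: Penk, Lvrn, Serpina3n, Inmt, Acsm5, Cpxm2, Slc38a1, Fibin, Sema3d and Ano5. They were chosen by measured values of these same libraries, the distance between their levels in female and male hearts, and the question was whether that female-male offset depended on tamoxifen or on the time of day. All 10 were found by symbol among 55376 rows of the count table, all 10 lie on autosomes, and all 10 are among the 15629 genes with enough counts to test. The libraries are poly-A RNA from ventricle of mice in which Bmal1, an activator of the circadian clock whose gene is listed as Arntl, can be deleted from cardiomyocytes by tamoxifen. There were 4 groups of 24 libraries: tamoxifen females, tamoxifen males, vehicle females and vehicle males. The labels give all 4 groups the same genotype, iCSBmal1 KO, so vehicle mice carried the alleles without the drug that induces the deletion, and the effect of the drug cannot be told apart from that of the deletion. Each group was sampled at 12 times, every 4 h from ct 18 to ct 62 (ct, read as circadian time in h), with 2 libraries a time. Whether each library stands for its own animal is not stated in the labels, and the p-values speak of the scatter among these libraries only. The sources used here name neither the recombinase driver nor the age of the mice.

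The 10 genes have unlike roles. Penk encodes proenkephalin, the precursor of enkephalin opioid peptides. Sema3d encodes a secreted guidance protein that signals through neuropilins and plexins, and Fibin a secreted factor first described in zebrafish fin development. Serpina3n encodes a secreted protease inhibitor of the acute phase. Lvrn encodes the membrane aminopeptidase laeverin, Cpxm2 a secreted protein of the carboxypeptidase family, Inmt an N-methyltransferase of indolethylamines, and Acsm5 a mitochondrial acyl-CoA synthetase of medium-chain fatty acids. Slc38a1 encodes a sodium-coupled transporter of glutamine and other neutral amino acids. Ano5 encodes a membrane protein of the anoctamin family whose loss causes muscular dystrophy in humans. All 10 are protein-coding genes, at these whole-gene positions in GENCODE M21 (GRCm38). Penk is on chromosome 4 (4133531 to 4138819, minus strand), Lvrn on 18 (46850038 to 46907242, plus), Serpina3n on 12 (104406729 to 104414329, plus), Inmt on 6 (55170626 to 55175043, minus) and Slc38a1 on 15 (96571418 to 96642913, minus). Chromosome 7 carries Acsm5 (119519463 to 119545551, plus), Cpxm2 (132032687 to 132154739, minus) and Ano5 (51511029 to 51598709, plus). Fibin is on chromosome 2 (110360917 to 110363183, minus) and Sema3d on 5 (12383385 to 12588948, plus).

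Library totals ran from 8944955 to 20596194 counts. The median level of Arntl was not lower with tamoxifen, while its fitted daily amplitude was smaller. Its level had a lowest, median and highest value of 2.79, 16.8 and 29.3 CPM (read counts scaled to library size with TMM factors) in tamoxifen females, 1.31, 13.7 and 32.4 in tamoxifen males, 1.01, 13.6 and 55.7 in vehicle females and 1.31, 13.3 and 44.6 in vehicle males. Its fitted amplitude was 0.87 log2 in tamoxifen females, 0.87 in tamoxifen males, 2.38 in vehicle females and 2.05 in vehicle males. Whether the counted exons lie outside the deleted part was not tested. One of the libraries labelled tamoxifen female at ct 54 had 0.248 CPM of the X-linked Xist, against 204 CPM or more in the other 23 of its group, and 10.3 CPM of the Y-linked Ddx3y, against 127 to 200 CPM in tamoxifen males. It goes against its label, so each result was also computed without it, and a value without it is given where a call was lost or the gene rests on it. Cardiomyocyte markers summed to 27860 to 50320 CPM over all libraries. 13 libraries had over 20 CPM of the atrial gene Myl7 (1 tamoxifen female, 2 tamoxifen male, 7 vehicle female, 3 vehicle male). 10 vehicle male libraries had a larger share of counts in TEC genes, loci annotated as to be experimentally tested, than any library of the other groups. The numbers in the titles are interleaved between tamoxifen females and males, and those of vehicle females and of vehicle males form ranges of their own. Among the tamoxifen libraries, 7 female and 12 male ones fall in a second, upper range of numbers, and each result was also fitted with a term for that range. If these numbers mark batches, sex and batch cannot be told apart in vehicle hearts, nor can tamoxifen and batch.

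The promoters of 7 of the 10 genes were found in the RefSeq table of GRCm38.p6. Those of Inmt and Fibin and those of Acsm5 and Ano5 are shown because, as given below, the levels within each of these pairs moved together between libraries. Each is the 250 bases before the RefSeq start, 5′ to 3′ on the gene's strand, with matches to the motifs searched in capitals. Inmt lies on chromosome 6, minus strand, chr6:55174991-55175240, Fibin on chromosome 2, minus strand, chr2:110362994-110363243, and Acsm5 and Ano5 on the plus strand of chromosome 7, at chr7:119526015-119526264 and chr7:51510779-51511028. The RefSeq start of Acsm5 is downstream of its GENCODE start, so its stretch lies inside the gene span given above. The stretches of Inmt and Fibin overlap the first bases of theirs.
Inmt: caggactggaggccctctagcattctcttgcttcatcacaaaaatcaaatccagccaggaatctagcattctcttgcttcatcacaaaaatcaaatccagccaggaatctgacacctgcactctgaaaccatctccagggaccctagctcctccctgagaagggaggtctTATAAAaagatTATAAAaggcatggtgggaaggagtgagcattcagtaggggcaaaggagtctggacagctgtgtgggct
Fibin: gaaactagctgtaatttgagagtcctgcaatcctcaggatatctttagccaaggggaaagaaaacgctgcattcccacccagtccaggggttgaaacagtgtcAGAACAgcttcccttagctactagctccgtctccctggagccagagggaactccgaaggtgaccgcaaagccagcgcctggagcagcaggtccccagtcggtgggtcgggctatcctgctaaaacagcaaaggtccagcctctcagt
Acsm5: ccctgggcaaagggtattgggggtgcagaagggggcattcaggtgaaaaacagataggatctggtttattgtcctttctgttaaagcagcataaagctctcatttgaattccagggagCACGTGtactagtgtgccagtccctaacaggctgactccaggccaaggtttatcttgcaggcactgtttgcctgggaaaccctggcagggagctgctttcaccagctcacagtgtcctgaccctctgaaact
Ano5: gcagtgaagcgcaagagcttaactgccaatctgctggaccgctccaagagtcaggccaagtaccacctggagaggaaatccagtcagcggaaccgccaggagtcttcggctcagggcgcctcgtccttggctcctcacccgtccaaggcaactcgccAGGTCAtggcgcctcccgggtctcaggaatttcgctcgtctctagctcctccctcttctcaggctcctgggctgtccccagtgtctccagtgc

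The motifs searched were the E-box CACGTG, to which the Bmal1 protein is known to bind, the ROR element AGGTCA, the D-box TTATGTAA, the palindromic oestrogen response element and the hexamer AGAACA of glucocorticoid and androgen response elements, all on both strands, and the TATA box TATAAA on the strand of the gene. ROR and oestrogen elements share letters and can overlap. Inmt held a pair of TATA boxes, 80 and 69 bases before its start, a motif found in 7.59% of 32851 promoters of the same length. Fibin held AGAACA 147 bases before its start (16.1% of promoters). Acsm5 held the E-box 132 bases before its RefSeq start (6.02%), inside the gene's GENCODE span. Ano5 held the ROR element 93 bases before its start (14% of promoters). Serpina3n held AGAACA 183 bases before its start, and Sema3d and Cpxm2 held none of these letters. No promoter of the 7 held the D-box (0.819% of all) or the oestrogen element (0.0639%). These are matches of letters, not sites of binding.

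The offsets are a description, since they chose the genes. In tamoxifen hearts 6 genes lay lower in females and 4 higher, and of all tested genes 3.60% were called lower and 4.08% higher. In vehicle hearts 7 lay lower and 3 higher, and of all tested genes 36.5% were called lower and 31.8% higher. Lvrn, Penk, Ano5, Acsm5, Cpxm2 and Serpina3n were lower in females under both treatments, and Slc38a1, Fibin and Sema3d were higher in females under both. The fitted offset of Inmt was positive with tamoxifen, with an interval that spans 0, and negative with vehicle. Among the 14996 autosomal genes tested, the fitted offset of Lvrn ranked 4th lowest in tamoxifen hearts and 5th lowest in vehicle hearts. Sex differences in either direction were called in 7.68% of tested genes in tamoxifen hearts and 68.3% in vehicle hearts, and nothing is read from the members' share, since these values chose them. Lvrn had no overlap between female and male libraries under either treatment, which holds for 0.0576% of tested genes (9 genes) in tamoxifen hearts and 0.109% (17 genes) in vehicle hearts. The other 9 members overlapped under both treatments.

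**Figure D1:**
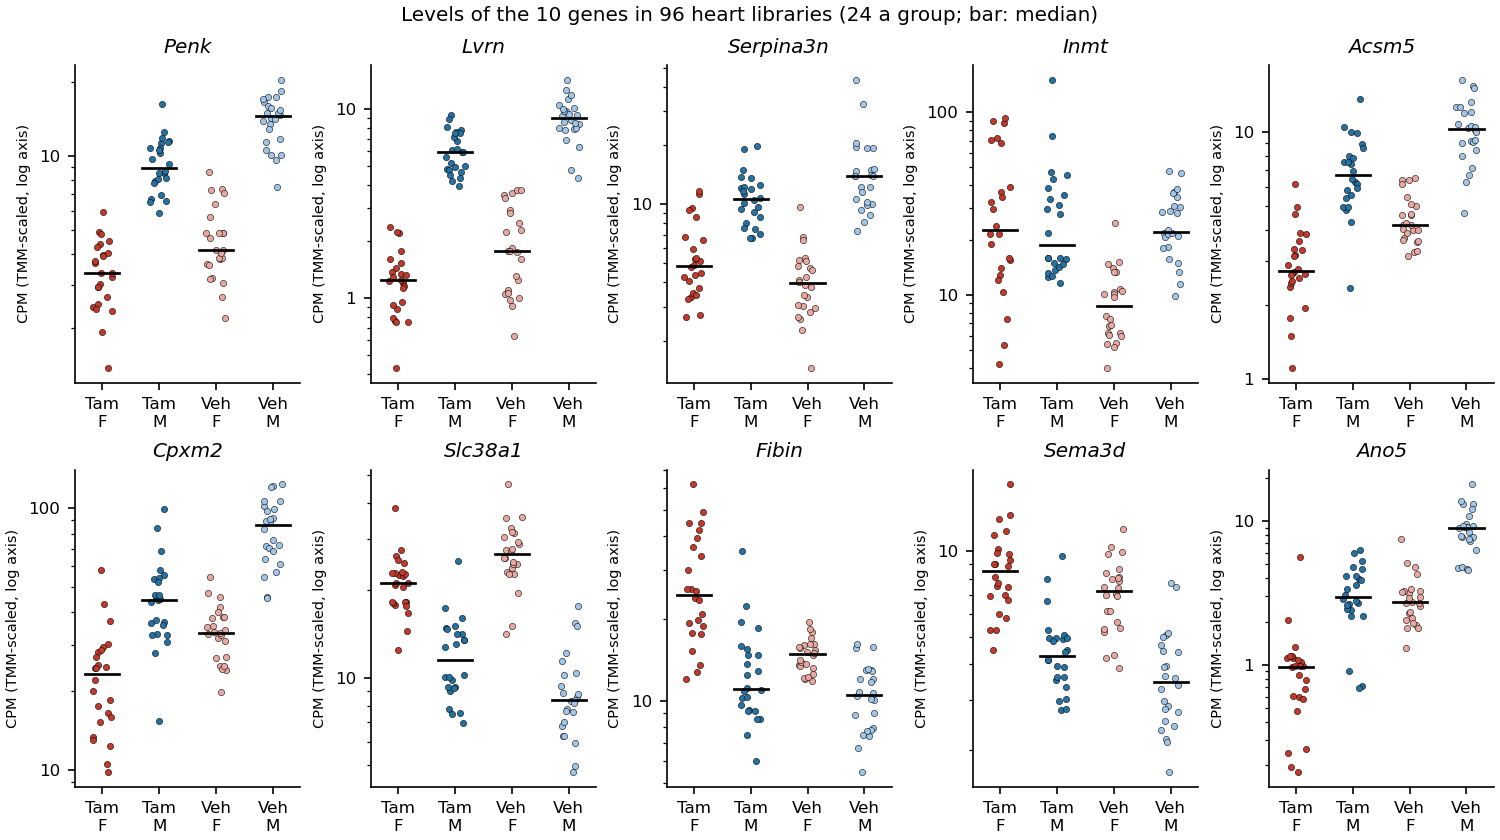
TMM-scaled CPM (log axis) of the 10 genes in each library, for tamoxifen females, tamoxifen males, vehicle females and vehicle males (24 libraries each; bar, median). Female and male Lvrn libraries are apart under both treatments, whereas Inmt libraries of the sexes overlap widely with tamoxifen, with medians of 22.7 and 18.9 CPM.

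The offset was tested for dependence on tamoxifen as the difference of offsets, the tamoxifen offset less the vehicle offset, with edgeR's quasi-likelihood test and Benjamini-Hochberg adjustment over all tested genes. A gene is called at an adjusted p under 0.05. The offset differed between tamoxifen and vehicle hearts for 4 of the 10 genes, Inmt, Serpina3n, Slc38a1 and Fibin, against 52.3% of all tested genes, so the share is near the background. If the title numbers mark batches, a batch difference between vehicle females and males enters this contrast and cannot be told apart from tamoxifen. It was higher with tamoxifen for 3 (27.0% of all genes) and lower for 1 (25.4%). Stable, the name under which the 10 were gathered, goes against the data for these 4. For the other 6, Penk, Lvrn, Acsm5, Cpxm2, Sema3d and Ano5, the test gave no call, which does not show that their offsets are equal, and they had been proposed as stable with these data known. The 95% interval of the difference of offsets was -0.36 to 0.37 log2 for Lvrn, -0.36 to 0.38 for Sema3d, -0.36 to 0.32 for Acsm5, -0.14 to 0.49 for Penk, -0.10 to 0.69 for Cpxm2 and -0.70 to 0.43 for Ano5.

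**Figure D2:**
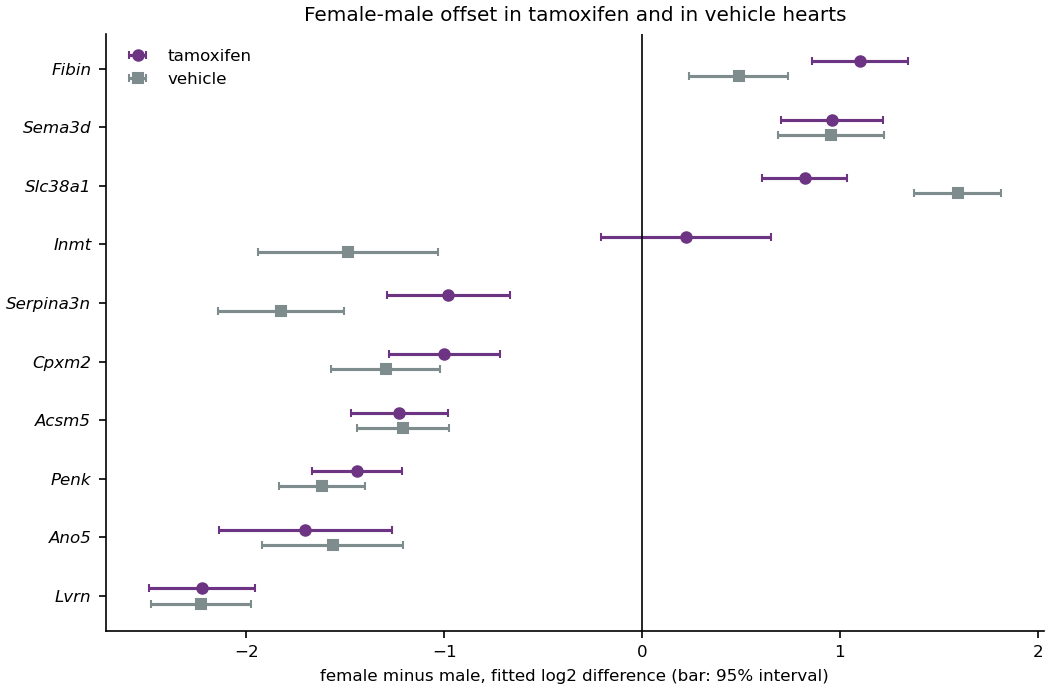
Fitted log2 difference, female minus male, of each gene in tamoxifen hearts (circles) and vehicle hearts (squares), with 95% intervals; 24 libraries a group. The intervals of tamoxifen and vehicle hearts lie apart for Inmt, Slc38a1, Serpina3n and Fibin, and nearly coincide for Lvrn, Acsm5 and Sema3d.

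Penk, the opioid precursor, was lower in females under both treatments and fell with tamoxifen in both sexes. Its levels (lowest, median and highest) were 1.38, 3.35 and 5.94 CPM in tamoxifen females and 5.87, 8.96 and 16.2 CPM in tamoxifen males. In vehicle hearts they were 2.21, 4.17 and 8.60 CPM in females and 7.45, 14.5 and 20.4 CPM in males. Just 1 female library lay in the male range under each treatment, and the female mean was the lower at 12 of 12 times in both. The offset was -1.44 ± 0.12 log2 in tamoxifen hearts and -1.62 ± 0.11 in vehicle hearts (fitted value ± SE). Tamoxifen hearts were 0.75-fold the vehicle level in females (log2 change -0.41 ± 0.12, adjusted p = 0.0063) and 0.67-fold in males (-0.58 ± 0.11, adjusted p = 1.29e-06). The female call was lost in the second 24 h alone (-0.35, adjusted p = 0.16). Of the 11 other opioid system genes listed, 2 were expressed enough to test, Ogfr and Cpe. Cpe, which trims prohormones, rose in both sexes (0.27 ± 0.04 in females, 0.40 ± 0.04 in males). The Schwann cell markers, summed, had medians of 12.02 CPM in tamoxifen females, 13.48 in tamoxifen males, 14.4 in vehicle females and 19.6 in vehicle males, and none of the 4 markers was at 0 over a whole group. Penk residuals, log2 CPM after group means and rhythms were removed, followed the Schwann cell markers with r = 0.455 over the 96 libraries (rho 0.437, and 0.417 without the 2 farthest libraries). Here and below, residuals are set against the mean residual of a list's tested markers, 3 for Schwann cells, and not against summed CPM. The part of these cells in the Penk offset was not tested. In bulk tissue, fewer cells of a type and less RNA per cell cannot be told apart.

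Sema3d, the secreted semaphorin, was about as far apart between the sexes in tamoxifen as in vehicle hearts. Sema3d levels (lowest, median and highest) were 4.50, 8.48 and 17.2 CPM in tamoxifen females, 2.76, 4.27 and 9.64 CPM in tamoxifen males, 3.87, 7.23 and 11.96 CPM in vehicle females and 1.66, 3.47 and 7.69 CPM in vehicle males. Libraries of the sexes overlapped under both treatments, with 16 tamoxifen and 14 vehicle female libraries inside the male range. The offset was 0.96 ± 0.13 log2 in tamoxifen hearts and 0.95 ± 0.13 in vehicle hearts. The mean was higher in females at 12 of 12 times with tamoxifen and at 11 of 12 with vehicle, the exception being ct 26. Tamoxifen minus vehicle was 0.29 ± 0.12 in females (adjusted p = 0.0752) and 0.28 ± 0.14 in males (adjusted p = 0.0627), neither called. Without the libraries over 20 CPM Myl7 both were called (0.42, adjusted p = 0.0132 in females, and 0.35, adjusted p = 0.0194 in males). The male change was called in 7 of 27 alternatives, among them DESeq2 (0.29, adjusted p = 0.0452), the second 24 h alone (0.51, adjusted p = 0.0243) and the set without the TEC-rich vehicle males (0.54, adjusted p = 0.0148), and it was 0.075 in the first 24 h alone (adjusted p = 0.729). The highest tamoxifen female value is that of the library at odds with its label; the other 23 reach 13.4 CPM. Summed epicardial and mesothelial markers had medians of 29.2 CPM in tamoxifen females, 25.1 in tamoxifen males, 34.7 in vehicle females and 19.5 in vehicle males. Of the 6, all tested, 5 were called higher in females with vehicle (31.8% of all tested genes) and 1 lower (36.5%). With tamoxifen 0 were called higher (4.08%) or lower (3.60%). The difference of offsets was called lower for 2 (25.4%) and higher for 0 (27.0%). Sema3d residuals followed the mean residual of these markers with r = 0.566 and that of the tested atrial markers with r = 0.531. The part of either in the offset was not tested. Among 13 other class 3 semaphorins and their receptors, tamoxifen raised 1 and lowered 3 in females, and raised 4 and lowered 6 in males; of all tested genes 27.5% were called in females and 70.0% in males, so these shares are near the background. Sema3g fell in both sexes (-0.26 ± 0.06 in females, -0.44 ± 0.06 in males). Sema3b, named after its values were seen, rose in both (0.17 ± 0.05 in females, adjusted p = 0.00462, and 0.16 ± 0.05 in males, adjusted p = 0.00194). Plxna1, a semaphorin co-receptor, had a difference of offsets of -0.54 ± 0.10 (adjusted p = 1.2e-05).

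Fibin, the secreted fin bud factor, was higher in females, and the more so with tamoxifen. Fibin levels (lowest, median and highest) were 12.1, 24.5 and 62.2 CPM in tamoxifen females, 6.02, 11.02 and 35.5 CPM in tamoxifen males, 11.8, 14.8 and 19.5 CPM in vehicle females and 5.47, 10.53 and 16.1 CPM in vehicle males. The tamoxifen female libraries are the high ones. The coefficient of variation was 47.1% in tamoxifen females, 46.9% in tamoxifen males, 14.1% in vehicle females and 27.6% in vehicle males. The offset was 1.10 ± 0.12 log2 in tamoxifen hearts and 0.49 ± 0.13 in vehicle hearts, and the difference between them was 0.61 ± 0.17 (edgeR, adjusted p = 0.00245). Tamoxifen raised Fibin 1.86-fold in females (0.90 ± 0.12, adjusted p = 2.78e-09). In males the rise was 1.22-fold (0.28 ± 0.13, adjusted p = 0.0407), and the call was lost in 17 of 27 alternatives, for example without the tamoxifen male library with the least Arntl (0.27, adjusted p = 0.0566). It was 0.08 (adjusted p = 0.628) with the term for the upper range of title numbers. The difference of offsets was still called without the library at odds with its label (0.61, adjusted p = 0.00282), and without the highest tamoxifen female library, from ct 18 (0.55, adjusted p = 0.00501).

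Serpina3n, the acute-phase protease inhibitor, was lower in females by a narrower margin in tamoxifen than in vehicle hearts. Serpina3n levels (lowest, median and highest) were 2.66, 4.83 and 11.7 CPM in tamoxifen females and 6.73, 10.6 and 19.9 CPM in tamoxifen males. In vehicle hearts they were 1.45, 3.93 and 9.66 CPM in females and 7.34, 13.96 and 43.4 CPM in males. With tamoxifen 6 female libraries lay in the male range, and with vehicle 1 did. The offset was -0.98 ± 0.16 log2 in tamoxifen hearts and -1.83 ± 0.16 in vehicle hearts, and the difference of 0.85 ± 0.22 was called (edgeR, adjusted p = 0.00112). Tamoxifen changed it in opposite directions in the sexes, up in females (1.35-fold, 0.43 ± 0.17, adjusted p = 0.0441) and down in males (0.75-fold, -0.42 ± 0.15, adjusted p = 0.0106). The female call was lost in 16 of 27 alternatives, for example without the library at odds with its label (0.40, adjusted p = 0.0638) and without the ct 18 library that is highest for Fibin (0.37, adjusted p = 0.0878), and the change was 0.12 in the first 24 h alone (adjusted p = 0.802). The male call was lost without ct 38, the time of its highest vehicle library (-0.23, adjusted p = 0.179), and in the second 24 h alone (-0.25, adjusted p = 0.278). Of 21 other acute-phase and clade A serpin genes 12 were tested, and the difference of offsets was called higher for 3 and lower for 4, near the 52.3% called among all tested genes. Timp1, an inhibitor of metalloproteases, differed by 1.23 ± 0.25 (adjusted p = 3.06e-05), with 1.48, 1.19, 1.03 and 1.89 CPM on average in tamoxifen females, tamoxifen males, vehicle females and vehicle males. Stat3, a transcription factor of the acute-phase response, differed the opposite way (-0.53 ± 0.08, adjusted p = 1.76e-07). Serpina3c, a neighbour in the same family chosen for mention after its values were seen, had an offset of -2.003 ± 0.233 log2 in tamoxifen and -2.12 ± 0.24 in vehicle hearts, at means of 0.276, 1.09, 0.238 and 1.04 CPM in the same 4 groups. Reads that fit several genes of this family could be dropped or misassigned by the counting, so values of Serpina3n and Serpina3c are uncertain to that extent.

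Lvrn, the membrane aminopeptidase, had the widest offset of the 10. Lvrn levels (lowest, median and highest) were 0.428, 1.25 and 2.38 CPM in tamoxifen females and 3.93, 5.94 and 9.36 CPM in tamoxifen males. In vehicle hearts they were 0.636, 1.78 and 3.76 CPM in females and 4.32, 8.99 and 14.3 CPM in males. Every female library lay below every male library of its treatment, including the library at odds with its label, which with 2.38 CPM is the highest of the tamoxifen females. The offset was -2.22 ± 0.14 log2 in tamoxifen hearts and -2.23 ± 0.13 in vehicle hearts, so female levels were 0.21-fold the male levels in both. Tamoxifen lowered Lvrn in females (0.68-fold, -0.56 ± 0.15, adjusted p = 0.00168) and in males (0.67-fold, -0.57 ± 0.11, adjusted p = 8.6e-06). The female call was lost in the first 24 h alone (-0.51, adjusted p = 0.105), and the male change was -0.34 (adjusted p = 0.0423) without the TEC-rich vehicle males. Endothelial markers also differed between these groups. Of the 7, all tested, 1 was lower in females than in males with tamoxifen (3.60% of all tested genes) and 7 were with vehicle (36.5%). With tamoxifen 2 fell in females (12.3%) and 7 in males (37.8%). Their sum ran from 1170 to 1537 CPM in tamoxifen females (median 1358), 1249 to 1705 in tamoxifen males (1507), 1235 to 2108 in vehicle females (1379) and 1405 to 2856 in vehicle males (1909), and no marker was at 0. Lvrn residuals followed the mean residual of the markers with r = 0.314 over the 96 libraries (rho 0.27, and 0.273 without the 2 farthest). Within groups r was 0.364 in tamoxifen females, 0.016 in tamoxifen males, 0.123 in vehicle females and 0.625 in vehicle males. The part of these cells in the Lvrn results was not tested. All 10 other M1 aminopeptidases were tested. Their offsets differed by treatment upward in 1 (27.0% of all tested genes), Aopep (0.41 ± 0.08, adjusted p = 2.34e-05), and downward in 5 (25.4%), among them the placental leucine aminopeptidase gene Lnpep (-0.43 ± 0.08, adjusted p = 1.69e-05). Trhde, which degrades thyrotropin-releasing hormone and was chosen for mention after its values were seen, was on the opposite side from Lvrn, 0.87 ± 0.15 log2 higher in females with tamoxifen and 1.02 ± 0.16 with vehicle.

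Inmt, the methyltransferase, had an offset near 0 with tamoxifen and was lower in females with vehicle. Inmt levels (lowest, median and highest) were 4.20, 22.7 and 93.3 CPM in tamoxifen females, 11.7, 18.9 and 151 CPM in tamoxifen males, 3.98, 8.74 and 24.8 CPM in vehicle females and 9.85, 22.3 and 47.5 CPM in vehicle males. Vehicle females are the low group and the other groups overlap widely. The offset was 0.22 ± 0.22 log2 in tamoxifen hearts, with a 95% interval of -0.21 to 0.65, and -1.49 ± 0.23 in vehicle hearts. The difference of 1.71 ± 0.32 is the widest of the 10 (edgeR, adjusted p = 8.27e-06). Tamoxifen raised Inmt 3.58-fold in females (1.84 ± 0.23, adjusted p = 2.74e-10). In males the change was 0.13 ± 0.22 (adjusted p = 0.592). With vehicle the female mean was the lower at 12 of 12 times; with tamoxifen it was the higher at 8 of 12, and lower at ct 18, 30, 58 and 62. The male mean at ct 58, 82.9 CPM, rests on 1 library with 151 CPM, the other having 14.7 CPM. The tamoxifen offset was 0.49 in the first 24 h alone and -0.18 in the second, where the difference of offsets was 1.05 (adjusted p = 0.0629). Fibroblast markers moved with Inmt more closely in tamoxifen than in vehicle hearts. Of the 8 fibroblast markers, 6 were higher in females than in males with tamoxifen (4.08% of all tested genes). With vehicle 2 were higher (31.8%) and 1 lower (36.5%). The difference of offsets was called for 6 of 8, all upward (27.0%). With tamoxifen 6 of 8 rose in females (15.2%), while in males 1 fell (37.8%) and 0 rose (32.2%). Their summed level ran from 2000 to 3450 CPM in tamoxifen females (median 2741), 1779 to 3253 in tamoxifen males (2046), 1958 to 3169 in vehicle females (2290) and 1803 to 3375 in vehicle males (2273), and no marker was at 0. Residuals of Inmt, Fibin, Sema3d and Serpina3n followed the fibroblast markers with r = 0.559, 0.675, 0.599 and 0.384 over the 96 libraries (0.49, 0.624, 0.608 and 0.429 without the 2 farthest). For Inmt r was 0.723 within tamoxifen females and 0.768 within tamoxifen males, but 0.235 within vehicle females and 0.218 within vehicle males. The part of the fibroblast share in these results was not tested. Of 9 other small-molecule methyltransferases, all tested, the difference of offsets was called higher for 2 (27.0% of all tested genes) and lower for 4 (25.4%). Gnmt, which methylates glycine, fell in both sexes (-1.23 ± 0.11 in females, -1.08 ± 0.11 in males), and its difference of offsets was not called (-0.14 ± 0.15). Coq5, a methyltransferase of ubiquinone synthesis, rose in both (0.29 ± 0.07 in females, 0.57 ± 0.07 in males).

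Acsm5, the medium-chain acyl-CoA synthetase, had nearly the same offset under both treatments. Acsm5 levels (lowest, median and highest) were 1.11, 2.75 and 6.14 CPM in tamoxifen females, 2.34, 6.70 and 13.5 CPM in tamoxifen males, 3.16, 4.21 and 6.50 CPM in vehicle females and 4.71, 10.2 and 16.3 CPM in vehicle males. With tamoxifen 20 female libraries reached the male range, whose lower end is a single library at 2.34 CPM from ct 18, and with vehicle 7 did. The offset was -1.23 ± 0.12 log2 in tamoxifen hearts and -1.21 ± 0.12 in vehicle hearts. Acsm5 fell with tamoxifen in females (0.67-fold, -0.58 ± 0.13, adjusted p = 1.83e-04) and in males (0.68-fold, -0.56 ± 0.11, adjusted p = 1.25e-05). Of 9 other acyl-CoA synthetases of short and medium chains 5 were tested, and tamoxifen raised 2 in females (15.2% of all tested genes) and 4 in males (32.2%) and lowered 0 in either sex. Acss3, a propionyl-CoA synthetase, rose by 0.60 ± 0.11 in females and 0.43 ± 0.11 in males.

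Cpxm2, the carboxypeptidase-like protein, was lower in females and fell with tamoxifen in both sexes. Cpxm2 levels (lowest, median and highest) were 9.81, 23.3 and 58.04 CPM in tamoxifen females, 15.4, 44.8 and 99.6 CPM in tamoxifen males, 19.8, 33.5 and 54.7 CPM in vehicle females and 45.2, 86.1 and 124 CPM in vehicle males. With tamoxifen 18 female libraries lay in the male range and with vehicle 3 did. The offset was -1.001 ± 0.141 log2 in tamoxifen hearts and -1.30 ± 0.14 in vehicle hearts. Tamoxifen lowered it to 0.68-fold in females (-0.55 ± 0.14, adjusted p = 0.00172) and 0.56-fold in males (-0.85 ± 0.14, adjusted p = 1.22e-07). The female call was lost in the first 24 h alone (-0.42, adjusted p = 0.0844). Cpxm2 residuals ran against the Schwann cell markers with r = -0.428 over the 96 libraries (rho -0.398, and -0.415 without the 2 farthest), and the part of these cells was not tested. Of 12 other M14 carboxypeptidase genes 9 were tested, and tamoxifen raised 3 and lowered 1 in females (15.2% and 12.3% of all tested genes), and raised 4 and lowered 0 in males (32.2% and 37.8%). The 1 lowered was Agtpbp1, which trims glutamates from tubulin, with -0.25 ± 0.06 in females and 0.19 ± 0.06 in males. Cpxm1, the closest in name and chosen for mention after its values were seen, rose in females by 0.30 ± 0.09 and did not pass in males (-0.04 ± 0.09).

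Slc38a1, the glutamine transporter, was higher in females, and the margin was narrower with tamoxifen. Slc38a1 levels (lowest, median and highest) were 12.4, 21.2 and 38.5 CPM in tamoxifen females, 6.98, 11.5 and 25.2 CPM in tamoxifen males, 14.2, 26.6 and 46.6 CPM in vehicle females and 4.70, 8.33 and 17.7 CPM in vehicle males. The groups are furthest apart with vehicle, where 2 female libraries lay in the male range; with tamoxifen 20 did. The offset was 0.82 ± 0.11 log2 in tamoxifen hearts and 1.60 ± 0.11 in vehicle hearts, a difference of -0.77 ± 0.15 (edgeR, adjusted p = 2.82e-05). Tamoxifen lowered Slc38a1 in females (0.79-fold, -0.34 ± 0.10, adjusted p = 0.0101) and raised it in males (1.35-fold, 0.44 ± 0.11, adjusted p = 4.95e-04). The female call was lost with the term for the upper range of title numbers (-0.26, adjusted p = 0.0593) and in the first (-0.43, adjusted p = 0.0507) and the second 24 h alone (-0.25, adjusted p = 0.141), and the male call in the first 24 h alone (0.25, adjusted p = 0.191). Atrial markers moved with it: its residuals followed the mean residual of the tested ones with r = 0.552 (rho 0.44, and 0.457 without the 2 farthest libraries). The summed level of the atrial markers had medians of 130 CPM in tamoxifen females, 129 in tamoxifen males, 214 in vehicle females and 214 in vehicle males, with highest values of 3535, 2479, 2643 and 2210 CPM in the same order. Of the 5 atrial markers 3 were tested, and 2 fell with tamoxifen in females (12.3% of all tested genes) and 0 in males (37.8%). Despite the equal medians of the sums, 2 of the 3 were called higher in females with vehicle (31.8%) and 0 lower (36.5%). With tamoxifen 0 were called higher (4.08%) or lower (3.60%). The difference of offsets was called lower for 1 (25.4%), Myl7 (-5.19 ± 1.88, edgeR adjusted p = 0.0109), and higher for 0 (27.0%). None of the 5 was at 0 over a whole group. The residuals of Slc38a1 ran against the endothelial markers in vehicle hearts alone, with r = -0.719 within females and -0.602 within males. Within tamoxifen females and males r had the opposite sign, 0.215 and 0.21. Over the 96 libraries it was -0.326 (rho -0.209, and -0.348 without the 2 farthest). The part of the endothelial cells was not tested. Without the libraries over 20 CPM Myl7 the difference of offsets was as large (-0.76, adjusted p = 1.21e-05), and the female change was no longer called (-0.24, adjusted p = 0.0634). Of 10 other Slc38 transporters 8 were tested, and the difference of offsets was called higher for 2 (27.0% of all tested genes) and lower for 4 (25.4%). Slc38a4 had a difference of offsets of -0.59 ± 0.13 (adjusted p = 2.12e-04), like Slc38a1, and Slc38a6 one of 0.56 ± 0.12 (adjusted p = 4.98e-05), the opposite way, while Slc38a3 fell in both sexes (-0.34 ± 0.07 in females, -0.32 ± 0.07 in males).

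Ano5, the anoctamin, fell most with tamoxifen of the 10, and did so in both sexes. Ano5 levels (lowest, median and highest) were 0.179, 0.972 and 5.602 CPM in tamoxifen females, 0.692, 2.96 and 6.31 CPM in tamoxifen males, 1.31, 2.73 and 7.54 CPM in vehicle females and 4.58, 8.99 and 18.1 CPM in vehicle males. The tamoxifen female values are low in reads, from 3 to 83 counts a library, and the highest is the ct 18 library that is also highest for Acsm5, Cpxm2 and Fibin. The offset was -1.70 ± 0.22 log2 in tamoxifen hearts and -1.56 ± 0.18 in vehicle hearts, and without ct 18 that of tamoxifen hearts was -2.03. Tamoxifen lowered Ano5 to 0.33-fold in females (-1.58 ± 0.22, adjusted p = 4.44e-09) and 0.37-fold in males (-1.44 ± 0.18, adjusted p = 4.35e-11). Of 9 other anoctamins 5 were tested, and tamoxifen raised 1 and lowered 3 in females (15.2% and 12.3% of all tested genes) and raised 0 and lowered 2 in males (32.2% and 37.8%). Ano4 changed by -1.76 ± 0.13 in females (log2) and by -1.12 ± 0.13 in males. Ano10 changed by -0.87 ± 0.08 in females and -0.75 ± 0.08 in males.

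Counted over the 10 genes, tamoxifen changed the mean level of 9 in females, against 27.5% of all tested genes, and of 8 in males, against 70.0%. In females 3 rose (15.2% of all genes) and 6 fell (12.3%), and in males 2 rose (32.2%) and 6 fell (37.8%). Penk, Lvrn, Acsm5, Cpxm2 and Ano5 fell in both sexes, which 6.74% of all tested genes did. Fibin rose in both, as did 9.16% of genes, and Serpina3n and Slc38a1 were called in opposite directions. The 5 that fell in both sexes are all lower in females. These changes and the difference of offsets come from the same libraries. The offsets that chose the genes are made of the same group means as these changes. The members' shares are therefore a description, and nothing is read from their distance to those of all tested genes.

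**Figure D3:**
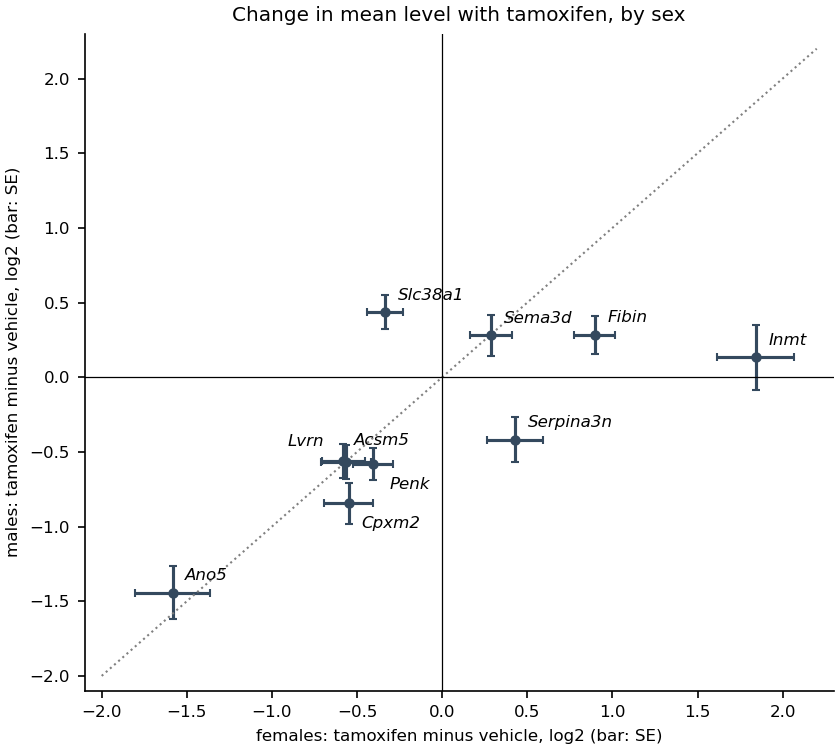
Change in mean level with tamoxifen (log2, tamoxifen minus vehicle, ± SE) in females (x axis) and in males (y axis) for the 10 genes; the dotted line marks equal changes. Ano5 lies lowest on both axes (-1.58 and -1.44), Inmt lies far right at 1.84 and 0.13, and Slc38a1 and Serpina3n lie in opposite quadrants.

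Levels can be compared between genes per length of exon. The median RPKM (CPM per kilobase of exon) in tamoxifen females was 14.2 for Inmt, 10.8 for Fibin, 5.05 for Cpxm2, 2.34 for Serpina3n, 2.05 for Penk, 1.23 for Slc38a1, 0.986 for Sema3d, 0.723 for Acsm5, 0.236 for Lvrn and 0.124 for Ano5. In vehicle males Cpxm2 was the first in that order with 18.6 and Inmt the next with 13.9, and Sema3d the last with 0.404.

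The dependence of the offset on time was tested as the difference between the female and the male daily curve, on the cosine and sine terms of a 24 h period. In tamoxifen hearts it was called for 0 of the 10 genes, against 0.0384% of all tested genes (6 genes) by edgeR. Of these 6, 4 are the Y-linked genes used as label checks. Among tamoxifen females those exceeded 0.12 CPM only in the library at odds with its label. At an unadjusted edgeR p under 0.05 the curves differed for Ano5 (p = 0.0437, adjusted p = 0.845), and DESeq2 and limma voom called none of the 10 either. In vehicle hearts it was called for 2, Lvrn (amplitude of the difference 0.57 ± 0.18 log2, adjusted p = 0.0257) and Slc38a1 (0.48 ± 0.16, adjusted p = 0.0307), against 37.4% of all tested genes. Without the 10 TEC-rich vehicle male libraries neither was called (Lvrn 0.51, adjusted p = 0.149; Slc38a1 0.61, adjusted p = 0.0575). Both calls were also lost in the first 24 h alone and in the second 24 h alone. The Lvrn call was also lost without ct 34 (adjusted p = 0.0664) or ct 38 (adjusted p = 0.0764), and the Slc38a1 call without ct 18 (adjusted p = 0.178), ct 22 (adjusted p = 0.0812) or ct 54 (adjusted p = 0.0901). Without the libraries over 20 CPM Myl7 that of Slc38a1 was 0.25 (adjusted p = 0.436).

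The sign of the offset at each time is a description, since the offsets chose the genes. Penk, Lvrn, Serpina3n, Acsm5, Slc38a1 and Fibin had the same sign at 12 of 12 times under both treatments. Cpxm2 and Ano5 had it at 11 of 12 with tamoxifen and at 12 of 12 with vehicle, the exception for both being ct 18, where 1 library is the highest tamoxifen female for both. Sema3d was higher in females at 12 of 12 with tamoxifen and at 11 with vehicle. Inmt was higher in females at 8 of 12 times and lower at 4 with tamoxifen, from -2.07 at ct 58 to 1.10 at ct 38, and lower at 12 of 12 with vehicle. The offset of Lvrn ran from -3.16 to -1.68 log2 over the times in tamoxifen hearts and from -3.37 to -0.95 in vehicle hearts. The smallest vehicle offset of Lvrn stood at ct 38, with female and male means of 3.64 and 7.03 CPM. For Slc38a1 the offset ran from 0.32 to 1.41 with tamoxifen and from 0.72 to 2.29 with vehicle.

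**Figure D4:**
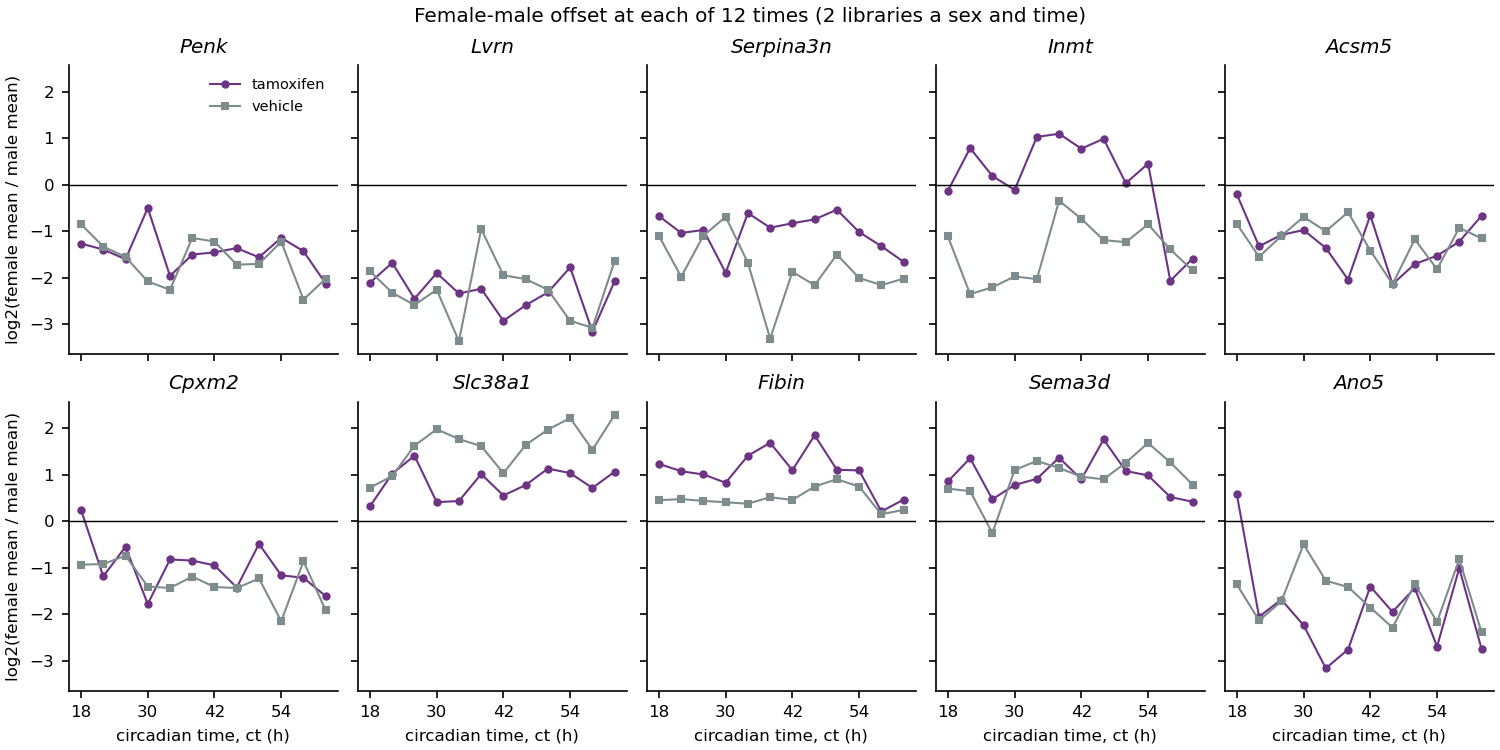
Log2 of the female mean over the male mean at each of 12 circadian times (2 libraries a sex and time) in tamoxifen hearts (circles) and vehicle hearts (squares). Lvrn stays between -3.37 and -0.95 throughout, whereas Inmt is above 0 at 8 times with tamoxifen and at none with vehicle.

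Within groups, a 24 h rhythm was called for Inmt and Fibin in tamoxifen females (17.1% of all tested genes), the same pair in tamoxifen males (8.03%), Penk, Lvrn and Inmt in vehicle females (34.5%), and Serpina3n and Slc38a1 in vehicle males (55.2%). Inmt had an amplitude of 0.81 ± 0.22 log2 with a fitted peak at ct 14.02 in tamoxifen females (adjusted p = 0.0186), and 1.02 ± 0.22 with a peak at ct 12.7 in tamoxifen males (adjusted p = 0.00333). Its peak-to-trough folds were 3.06 and 4.09 there. In vehicle females it was 0.71 ± 0.24, peak ct 14.6 (adjusted p = 0.0427), a call lost in 16 of 27 alternatives, and in vehicle males 0.37 ± 0.22 (adjusted p = 0.296). Fibin had 0.44 ± 0.12 with a peak at ct 14.3 in tamoxifen females (adjusted p = 0.0197) and 0.54 ± 0.13 with a peak at ct 12.6 in tamoxifen males (adjusted p = 0.00853). In tamoxifen females both calls were lost without ct 26, 30 or 38, at adjusted p from 0.0543 to 0.187, and the Fibin call without ct 50 (adjusted p = 0.114). Whether their rhythms differ between tamoxifen and vehicle was not tested.

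Lvrn had an amplitude of 0.72 ± 0.14 in vehicle females with a peak at ct 17.4, a 2.72-fold range (edgeR, adjusted p = 1.06e-04), and 0.15 ± 0.11 in vehicle males (adjusted p = 0.473). Penk had 0.37 ± 0.12 with a peak at ct 18.97 in vehicle females (adjusted p = 0.0264), a call lost in 7 of 27 alternatives. In vehicle males Serpina3n had 0.49 ± 0.15 with a peak at ct 16.02 (adjusted p = 0.0152) and Slc38a1 0.38 ± 0.12 with a peak at ct 21.5 (adjusted p = 0.0109). Neither of the male calls held without the 10 TEC-rich libraries (Serpina3n 0.37, adjusted p = 0.321; Slc38a1 0.47, adjusted p = 0.0937). That of Serpina3n was also lost without ct 38 (0.27, adjusted p = 0.253), and that of Slc38a1 without ct 22 (0.29, adjusted p = 0.127) and without the libraries over 20 CPM Myl7 (0.25, adjusted p = 0.106). Acsm5, Cpxm2, Sema3d and Ano5 were called in no group, with adjusted p from 0.0649 to 0.84.

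**Figure D5:**
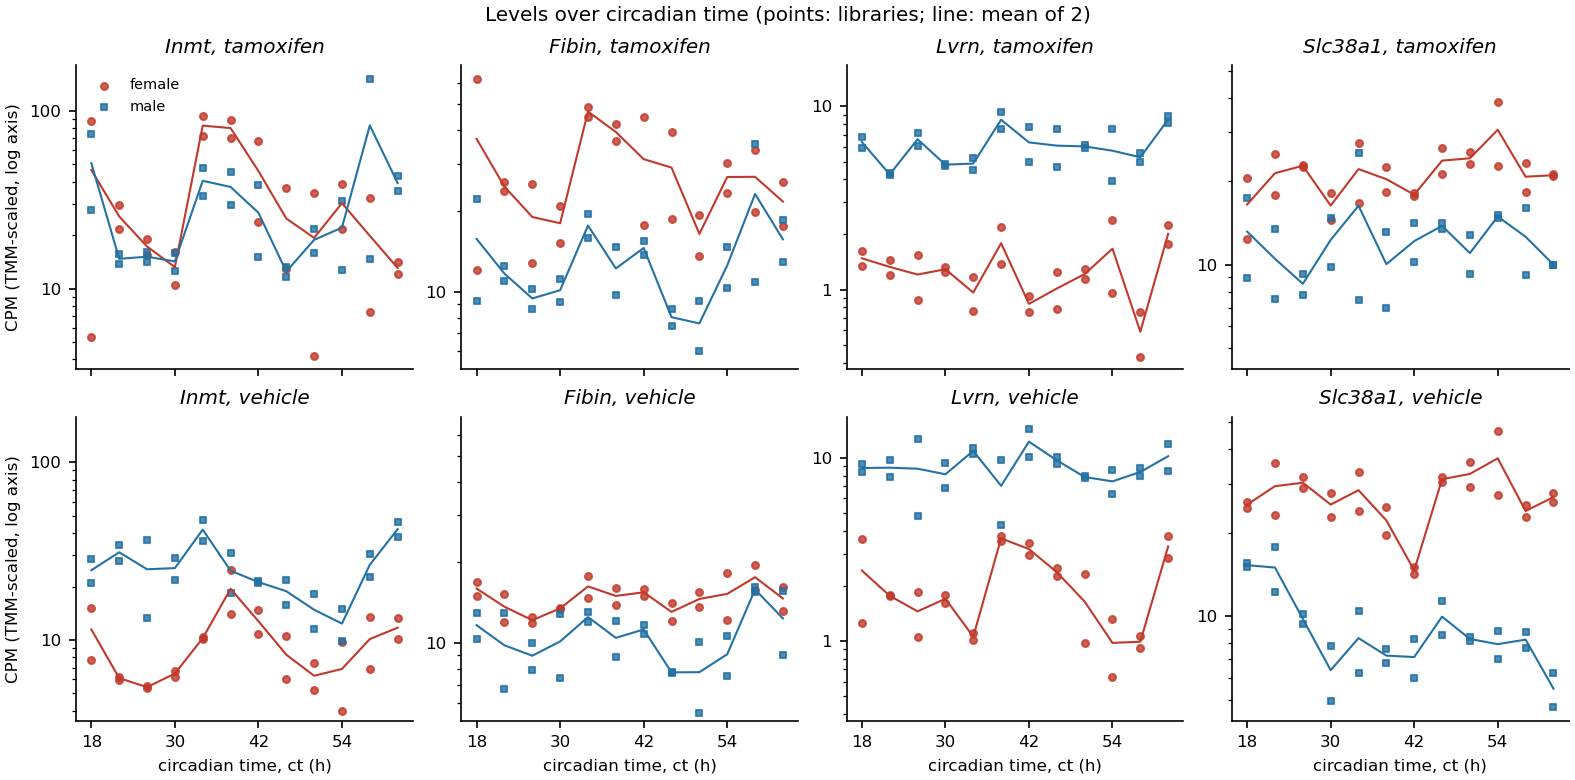
TMM-scaled CPM (log axis) of Inmt, Fibin, Lvrn and Slc38a1 over circadian time in tamoxifen hearts (top) and vehicle hearts (bottom), females as circles and males as squares (points, libraries; line, mean of 2). With tamoxifen the female Inmt means are highest at ct 34 and 38 (82.7 and 80.03 CPM) and the male mean at ct 58 (82.9 CPM), and the Lvrn means of vehicle females are highest at ct 38, 42 and 62.

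How the 10 genes moved together within groups was described by the correlation of their residuals over the 96 libraries. Residuals share the libraries and their RNA makeup. Of 45 pairs, 12 had a positive r and 3 a negative r past an adjusted p of 0.05 (permutation test, two-sided, adjusted over the 45). Inmt and Fibin had the highest, r = 0.718 and rho = 0.619, both with a permutation adjusted p of 1.1e-04, which rests on the smallest p that the permutations can give. Without the 2 libraries of most extreme Inmt, r was 0.654. Within single groups their r was 0.871 in tamoxifen females, 0.661 in tamoxifen males, 0.242 in vehicle females and 0.398 in vehicle males. Fibin and Sema3d had r = 0.591 (rho = 0.603, 0.58 without the 2 extreme libraries), Acsm5 and Ano5 r = 0.533 (rho = 0.469, 0.495 without them) and Inmt and Sema3d r = 0.528 (rho = 0.564, 0.507 without them), each with the same adjusted p for r and for rho. Penk and Lvrn had r = 0.367 and rho = 0.444 (permutation adjusted p of 0.0012 and 1.8e-04; r = 0.346 without the 2 extreme libraries).

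The tested genes whose residuals were most like each member, up to 3 a member, were taken over the same 96 libraries. For Inmt these were Ptn (r = 0.827), Omd (0.811) and Dcn (0.782), and for Fibin Itgbl1 (0.818), Nox4 (0.787) and Col8a1 (0.774). For Sema3d they were Sulf1 (0.801), Abi3bp (0.752) and Pkhd1l1 (0.715), for Cpxm2 Aqp8 (0.719), Bdh1 (0.715) and Optn (0.642), and for Acsm5 Acsl6 (0.685) and Ogdhl (0.63). For Slc38a1 they were Ddr1 (0.67), Slc38a4 (0.655) and Armcx4 (0.644), and for Serpina3n Mmp3 (0.637), Serping1 (0.618) and C3 (0.608). Lvrn, Ano5 and Penk had lower values, with Fmo2 (0.608), Spock2 (0.58) and Acer2 (0.577) for Lvrn, Ppip5k1 (0.572), Acsm5 (0.533) and Mettl11b (0.527) for Ano5, and Enpp2 (0.538), 9330158H04Rik (0.532) and Snrpa1 (0.519) for Penk. A share of 0.921% of tested genes exceeded r = 0.5 with Inmt, 1.09% with Fibin, 1.28% with Sema3d, and 0.0256% with Ano5.

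Sex steroid signalling genes were listed alongside. Of 18, 15 were tested, and the difference of offsets was called higher for 2 and lower for 5, a share near the 52.3% called among all tested genes. The coactivator gene Ncoa2 had a difference of -0.50 ± 0.08 (adjusted p = 1.62e-06) and Hsd17b4, an enzyme of steroid and fatty acid oxidation, -0.35 ± 0.09 (adjusted p = 0.0012). The median difference of offsets, not counting the members, was 0.225 for the acute-phase and serpin list, 0.01 for the semaphorins, -0.09 for the sex steroid genes, -0.12 for the anoctamins, -0.13 for the opioid genes, -0.14 for the M14 carboxypeptidases, -0.15 for the M1 aminopeptidases and for the methyltransferases, -0.20 for the Slc38 transporters and -0.24 for the acyl-CoA synthetases, beside 0.03 for all tested genes.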

How the data were processed

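Poly-A RNA of mouse ventricle was counted per gene in 96 libraries. The table the authors deposited holds unnormalized gene counts. HISAT2, Picard and HTSeq, with GRCm38 and mm10, are named in the submitters' processing notes; the sources used here give no versions and not whether counting used strand. RNA without a tail is not measured, and isoforms are not told apart. 26 rows named by dates, 0.1345% of counts, were kept and not named. Of 55376 rows, 54486 matched GENCODE M21 (GRCm38), the source of positions and exon lengths. Library totals were 8944955 to 20596194, so 1 count is worth at most 0.112 CPM.

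In R 4.3.3, edgeR 4.0.16 fitted a quasi-likelihood model to 15629 genes (filterByExpr by group, minimum count 10, TMM) with a mean, cosine and sine (24 h) for each of 4 groups, 12 coefficients and 84 residual degrees of freedom. p-values were Benjamini-Hochberg adjusted over all tested genes and called under 0.05. Intervals are 95%, on 90 degrees of freedom. The model was tested on simulated counts. 27 alternatives were run, among them DESeq2 1.42.0 and limma 3.58.1; 2 of these were added after seeing the data. Residuals are of log2 CPM with a prior count of 2.

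The 10 members and the gene lists were chosen with earlier results of these data known. Named genes are the 10 members, up to 3 genes a list that were called in both sexes or for the difference of offsets, by size, the 3 genes with the most similar residuals, and Arntl and sex-linked genes as checks; exceptions are marked. Some genes that the naming rule picks are not reported here.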

Additional observations from a re-analysis of the deposited data

Results flagged for a closer look

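Differences between groups were found for these values, each by edgeR's quasi-likelihood test with Benjamini-Hochberg adjustment. The offset, female minus male, was tested for a difference between treatments. The tamoxifen offset less the vehicle offset was 1.71 log2 for Inmt, 0.85 for Serpina3n, 0.61 for Fibin and -0.77 for Slc38a1. The daily curves of female and male vehicle hearts differed by an amplitude of 0.57 log2 for Lvrn and 0.48 for Slc38a1. Groups of 24 libraries are too large for the check of single libraries that lie far from the rest. A tamoxifen female library of ct 18 held the highest value of its group for 4 members, Acsm5, Cpxm2, Fibin and Ano5, and the library at odds with its label for 3, Lvrn, Slc38a1 and Sema3d.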

How the results depend on the processing

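Of 2970 values for single genes under 27 alternatives, 2836 were labelled the same, 108 lost a call, 26 gained one and 0 called values reversed in sign. The same means the same side of the threshold or, for the offsets, a move within the residual spread. Values without a call could change sign. The difference of offsets of Lvrn ran from -0.23 to 0.08, and the tamoxifen offset of Inmt from -0.18 to 0.49. The 20 offsets moved by less than the residual spread throughout, and all their values are among those labelled the same. That spread is one of single libraries, 0.39 to 0.81 log2, and is wider than the SE of an offset, 0.11 to 0.23. The label is thus a loose one for the offsets. The vehicle offset of Acsm5 ran from -1.46 in the second 24 h alone to -0.95 in the first and still bore it. The number of members whose offset differed between treatments was 4 in 25 of the 27 alternatives; it was 2 in the second 24 h alone, with Inmt (1.05, adjusted p = 0.0629) and Fibin (0.44, adjusted p = 0.15) lost, and 3 in the first 24 h alone, with Serpina3n (0.67, adjusted p = 0.0847) lost. The number whose offset followed time in vehicle hearts, 2, was 1 with library size alone, without a filter, with limma voom, with the 12 times as a factor, without the libraries over 20 CPM Myl7 and in the first 24 h alone, 0 without the libraries high in TEC counts and in the second 24 h alone, and 1 to 2 leaving out each time. The call in the first 24 h alone was Penk, with Lvrn and Slc38a1 both lost. Without ct 18 Serpina3n was called in place of Slc38a1, and without ct 54 Penk was. The number changed by tamoxifen in females, 9, was 5 in the first 24 h alone. Members rhythmic in tamoxifen females, 2, were 1 with limma voom and with times as a factor, 0 in the second 24 h alone, and 0 to 2 leaving out each time. Those in tamoxifen males, 2, were 0 with times as a factor and 1 in the first or second 24 h alone. Those in vehicle females, 3, were 1 with times as a factor, 0 in the first 24 h alone, and 1 to 4 leaving out each time. Those in vehicle males, 2, were 1 without the libraries over 20 CPM Myl7, 0 without the libraries high in TEC counts and in the second 24 h alone, and 1 to 4 leaving out each time. The causes were not tested; parts of the time course hold fewer libraries. Leaving out 2 single libraries (the tamoxifen male with the least Arntl and the tamoxifen female of ct 18) was chosen after seeing the data. Without a filter a trended dispersion was used. No paired analysis was possible because the groups share no replicate number. Depth limits Ano5 most, at 3 to 83 counts a library in tamoxifen females.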
